A study of Mus musculus with 8 samples.

Results

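The response of primary microglia of the mouse, which are macrophages that live in the brain, to an antibody Fc fragment given alone was measured by setting the 2 arrays of Fc-treated cells against the 2 arrays of PBS-treated cells, which are 4 of the 8 arrays in the series. The arrays were chosen by their labelled treatment and paired by the set number in their titles, and no measured value was used to choose them. The cells came from C57BL/6 mice and were exposed for 3 h to 20 µg/ml Fc or to PBS, and the labels used here give no age of the mice and no source of the Fc. The remaining 4 arrays were of cells given 20 µg/ml of Fc fused to Ecrg4(71-132) or to Ecrg4(133-148), 2 fragments of a secreted precursor protein. They entered the choice of probes and the estimate of the spread, and their values are given only beside some gene lists and single genes. Fc is thus the carrier that both fusion proteins share, and PBS is the only group without it.

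Each treatment had 1 array in set 1 and 1 array in set 2. The labels do not say whether the sets were cultured apart or came from other mice. The p-values below thus measure only the spread between these samples, which may be technical. With 1 array per treatment and set, that spread is how unequal the treatment differences were between the sets. It includes the fragment arrays, so an unequal response to a fragment also widens it. Per array, 24211 to 29423 probes were well above background, and the Fc array of set 2 had the fewest and the lowest 75th percentile of signal (494.6, against 551.5 for PBS in set 2, 809.3 for Fc in set 1 and 772.6 for PBS in set 1). Arrays of 1 set resembled each other more (correlation across genes of 0.994 to 0.997 in set 1 and 0.975 to 0.990 in set 2) than the 2 arrays of a treatment did (0.954 to 0.962). Set 1 filled one column of the single slide and set 2 the other, with Fc always in the place after PBS, so that set and slide column, and treatment and place in the column, cannot be told apart. Values below are log2 signals with the 75th percentile of each array at 0, and differences are Fc minus PBS on that scale.

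As background, the Fc part of an immunoglobulin G binds Fc gamma receptors, of which microglia carry several. Activating receptors signal through the common gamma chain, Src-family kinases and Syk when they are cross-linked, while Fcgr2b carries an inhibitory motif. Other routes recur in activated macrophages, namely NF-kB, which drives genes of cytokines and of its own inhibitors, and type I interferon, which acts through its own receptor on a large set of antiviral genes.

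The activation genes Tnf, Acod1, Il1b, Il6 and Cxcl2 stood higher with Fc in both sets, by 1.77-fold to 3.90-fold within a set, while the cytokine and chemokine lists as a whole did so in 7 of 17 and 6 of 17 genes, near the 39.6% of all genes. Most NF-kB genes stood higher by smaller amounts. Interferon-stimulated genes were higher with Fc in set 1 and lower with Fc in set 2. No gene passed the test over all 19114 genes (limma with the set as a block, 0% at an adjusted p under 0.05, with the smallest adjusted p at 0.9996), and 355 genes (1.86%) had an unadjusted p under 0.05, 165 higher and 190 lower with Fc. The 1.86% is less than the share of 0.05 that no change at all would give. Without the set as a block, 0 genes passed and 51 had an unadjusted p under 0.05. With the 4 Fc and PBS arrays alone, 0 passed and 875 had an unadjusted p under 0.05. With 2 arrays against 2, an exact two-sided permutation test of 1 gene cannot go below p = 0.333, and with 2 pairs it cannot go below 0.5.

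Tnf, which encodes the cytokine tumour necrosis factor, had a log2 signal of 4.32 and 3.19 on the Fc arrays of set 1 and set 2, against 3.32 and 1.74 on the PBS arrays. Fc was above PBS in each set, by 2.01-fold and 2.73-fold, but the Fc array of set 2 lay below the PBS array of set 1, so the groups overlap. The means were 3.76 ± 0.80 for Fc and 2.53 ± 1.12 for PBS (SD, n = 2 each), with a difference of 1.23 (SE 0.82, 95% interval -0.94 to 3.39, limma adjusted p = 0.9996). Acod1, which encodes the enzyme that makes itaconate in activated macrophages, stood at 6.12 and 1.58 with Fc and at 4.96 and 0.13 with PBS. It was 2.24-fold and 2.74-fold higher with Fc within the sets, while the sets themselves lay further apart than the treatments. The mean difference between Fc and PBS was 1.31 (SE 1.21). With the set as a block, the gap between the sets does not enter that SE. The fragment arrays do, and their differences from PBS were unequal between the sets. Acod1 stood at 7.14 and 6.31 with Ecrg4(71-132) and at 5.94 and 4.68 with Ecrg4(133-148). Nfkbia, which encodes the inhibitor IkappaB-alpha and is itself an NF-kB target, stood at 6.69 and 6.20 with Fc and at 6.36 and 5.31 with PBS. It differed by 0.32 in set 1 and 0.89 in set 2 (mean 0.61, SE 0.36, interval -0.33 to 1.55), and the groups overlap because the Fc array of set 2 was below the PBS array of set 1.

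**Figure D1:**
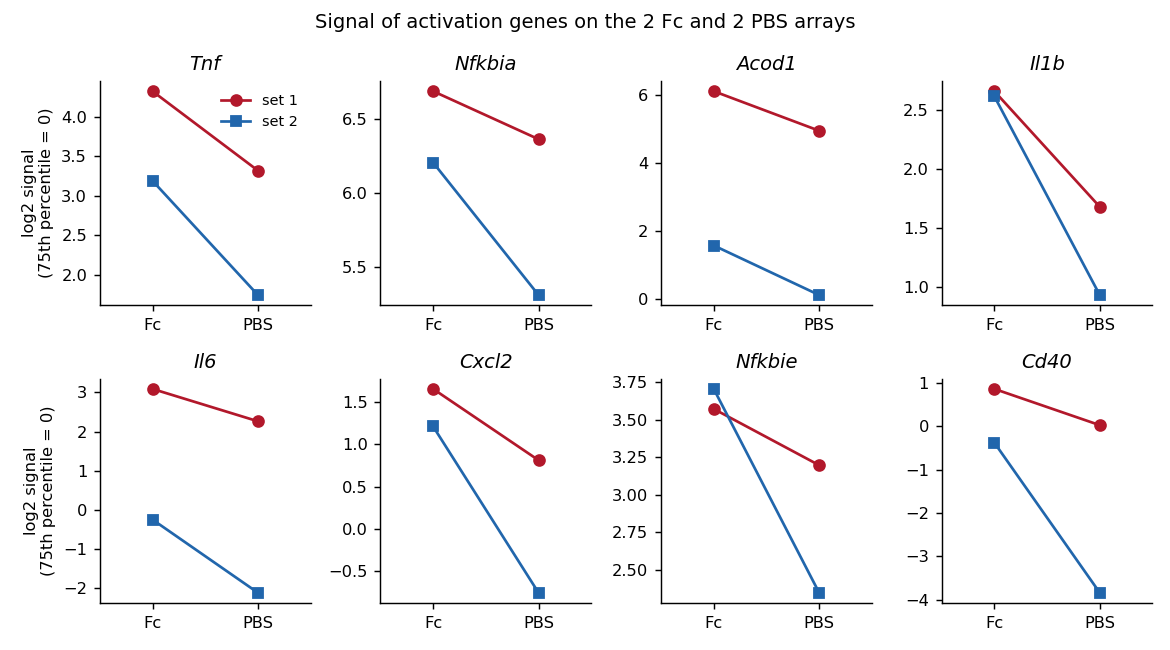
Log2 signal (75th percentile of each array at 0) of 8 activation genes on the 2 Fc arrays and the 2 PBS arrays, with 1 panel per gene and a line joining the arrays of set 1 (red circles) and of set 2 (blue squares). In every panel each Fc array lies above the PBS array of its own set, and the line is steeper in set 2 for all 8 genes. The genes were picked with their values known. Acod1, Cxcl2 and Cd40 had the largest mean difference of their lists. Il6 and Nfkbie had the largest among the cytokine and NF-kB genes named in the text. The direction of all these genes thus follows from the choice. Ccl5 and Cxcl10, which went opposite ways in the sets, are not drawn.

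Among other cytokine genes, Il1b, the gene of interleukin-1 beta, stood at 2.66 and 2.62 with Fc and at 1.68 and 0.93 with PBS. Both Fc arrays were above both PBS arrays, by 1.98-fold and 3.22-fold within the sets (mean difference 1.34, SE 1.13). Il1a, the gene of interleukin-1 alpha, likewise did not overlap between the groups, at 0.73 and 1.19 with Fc and at 0.01 and 0.44 with PBS. The background for such a separation is 7.26% of all genes tested with both Fc arrays above both PBS arrays and 3.23% with both below. Il6, the gene of interleukin-6, stood at 3.09 and -0.25 with Fc and at 2.26 and -2.11 with PBS, and overlapped because the sets differed by more than the treatments. Of the 17 cytokine and colony-stimulating factor genes tested from a list of 22, 7 were higher with Fc in both sets, 7 were higher in set 1 and lower in set 2, 3 were lower in set 1 and higher in set 2, and 0 were lower in both. Over all genes 39.6% were higher in both sets, 16.7% lower in both, 30.4% higher in set 1 and lower in set 2, and 13.3% lower in set 1 and higher in set 2, so the count of cytokine genes is near the background. The median difference of the list was 0.30 in set 1 and 0.33 in set 2, beside 0.06 and 0.01 for all genes, and with quantile scaling it was 0.008 in set 2. Over the 14 members well above background on the 4 arrays, the medians were 0.30 and 0.22. Of those 14, 7 were higher in both sets and 6 were higher in set 1 and lower in set 2. Among all 17504 such genes these counts were 7326 and 5395.

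Chemokine genes divided. Cxcl2, which encodes a neutrophil attractant, stood at 1.66 and 1.21 with Fc and at 0.81 and -0.75 with PBS, with both Fc arrays above both PBS arrays (difference 1.40, SE 0.95). Cxcl3, a gene of the same family, was higher by 0.43 in set 1 and 1.38 in set 2. Ccl3, the gene of macrophage inflammatory protein 1-alpha, was bright on all 4 arrays, at 6.78 and 6.94 with Fc and at 6.35 and 6.72 with PBS. Its difference of 0.32 (SE 0.09) had an unadjusted p of 0.0185 and did not pass (limma, adjusted p = 0.9996), and it is named after its values were seen. Ccl5 and Cxcl10, chemokine genes that interferon also induces, went opposite ways in the sets. Ccl5 stood at 1.56 and -1.43 with Fc and at -0.52 and -0.88 with PBS, and Cxcl10 stood at 6.60 and -0.75 with Fc and at 5.35 and -0.48 with PBS. Of the 17 chemokine genes tested from a list of 21, 6 were higher with Fc in both sets, 7 were higher in set 1 and lower in set 2, and the medians were 0.44 and 0.06. The median of set 2 was -0.02 over the 15 members well above background on the 4 arrays.

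The NF-kB list held genes of the subunits, of the kinases that release them and of the inhibitors and other targets that NF-kB induces, and 31 of its 34 genes were tested. With Fc, 30 were higher in set 1, 28 in set 2 and 27 in both sets (87.1%, against 39.6% of all genes), and 0 were lower in both. Of all genes, 70.0% were higher in set 1, 52.9% were higher in set 2 and 16.7% were lower in both. The median difference was 0.28 in set 1 and 0.38 in set 2, and 21 members had the larger difference in set 2. In set 1 only 1 member, Nfkbiz, differed by more than 0.5, while 14 did in set 2. Over all genes, the 95th percentile of the difference was 0.31 in set 1 and 0.37 in set 2. In 9 members both Fc arrays were above both PBS arrays, as in 7.26% of all genes. Only 1 member had an unadjusted limma p under 0.05, as 1.86% of all genes did, and 0 passed the test over all genes. The direction in set 1 was the same for 30 members with every scaling tried, and in set 2 for 27 to 29, while the median of set 1 was 0.38 with each array scaled to its median and 0.16 with each array scaled to its microglia markers. This list was assembled with results of these arrays known, so its direction is a description.

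Among the inhibitor genes, Nfkbie, the gene of the inhibitor IkappaB-epsilon, stood at 3.57 and 3.71 with Fc and at 3.20 and 2.35 with PBS. Its groups did not overlap, and it differed by 0.38 in set 1 and 1.36 in set 2 (SE of the mean 0.68). Bcl3, which encodes a nuclear IkappaB-like protein, stood at 4.83 and 4.09 with Fc and at 4.59 and 2.99 with PBS. Tnfaip3, the gene of the deubiquitinase A20 that ends NF-kB signalling, was named after its values were seen and was higher by 0.30 and 0.70. Nfkbiz, a nuclear cofactor gene, was higher by 0.56 and 0.97 at a low signal, between -2.66 and -0.68. Among subunit genes, Nfkb2 was higher by 0.30 and 0.72 and Relb by 0.19 and 0.85. Icam1, which encodes an adhesion molecule and is an NF-kB target, was higher by 0.39 and 0.80. Ripk2, a kinase gene, was higher by 0.27 in set 1 and lower by 0.27 in set 2, and had the smallest mean difference of the list.

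Leaving out 1 array moved these values widely, since the fit then takes the missing array from the other set and the other treatments. The median difference of the NF-kB genes was 0.01 without the PBS array of set 2 and 0.09 without the Fc array of set 1, against 0.68 without the Fc array of set 2 and 0.84 without the PBS array of set 1. Tnf ranged from 0.26 to 2.19, Cxcl2 from 0.104 to 2.7 and Nfkbia from 0.09 to 1.13. Acod1 ranged from -0.0005 to 2.62, and Il1b, Il6, Cxcl3, Nfkbie, Bcl3, Tnfaip3 and Tlr2 were also below 0 without the PBS array of set 2. On that array each of these genes had its lowest signal of the 4 Fc and PBS arrays.

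The Nfkbia promoter is shown because Nfkbia is the marker of NF-kB activity among the genes above. The 300 bases run from 250 before to 50 after the annotated gene start on the gene's own strand, from RefSeq on GRCm38.p6, and the capitals mark the match, on the opposite strand, to the kappaB form, the letters GGG, any 2 bases and TTTCC, which begins 29 bases before the start.
Nfkbia (chr12:55492598-55492897, minus strand): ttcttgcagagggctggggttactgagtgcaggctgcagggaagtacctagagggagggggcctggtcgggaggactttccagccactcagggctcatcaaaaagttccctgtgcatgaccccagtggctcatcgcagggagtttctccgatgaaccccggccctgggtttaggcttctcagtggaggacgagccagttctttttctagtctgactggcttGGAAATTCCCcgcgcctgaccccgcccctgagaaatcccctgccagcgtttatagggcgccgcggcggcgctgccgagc
The kappaB form was searched on both strands and was found in 4 of the 25 tested NF-kB genes with a promoter in the table (16.0%), in 4 of 12 cytokine genes (33.3%), in 4 of 11 chemokine genes (36.4%) and in 1.89% of all 27025 promoters of that length. A match is a run of letters, and no binding was measured here.

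Interferon-stimulated genes, which encode antiviral enzymes, ubiquitin-like modifiers, guanylate-binding proteins and sensors of foreign nucleic acid, went opposite ways in the 2 sets. Of the 53 tested from a list of 62, 53 were higher with Fc in set 1 and 52 were lower with Fc in set 2, where the shares of all genes were 70.0% and 47.1%. Oas1g, higher by 0.05 in set 2 and not well above background on either array of that set, was the exception and is named after its values were seen. The share that was higher in set 1 and lower in set 2 was 98.1%, against 30.4% of all genes. Like the NF-kB list, this list was assembled with results of these arrays known, so its directions are a description. The median difference was 0.70 in set 1 and -0.17 in set 2, where all genes had 0.06 and 0.01. The sizes were unequal too: 49 of the 53 differed by more in set 1, 39 were higher by over 0.5 in set 1, 10 were lower by over 0.5 in set 2, and 29 lay within 0.2 of 0 in set 2. With 1 array per treatment in each set, the difference between the sets has no replicate and was not tested. No member had an unadjusted p under 0.05, since the fit averages the sets (limma, adjusted p = 0.9996 for the members named below).

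**Figure D2:**
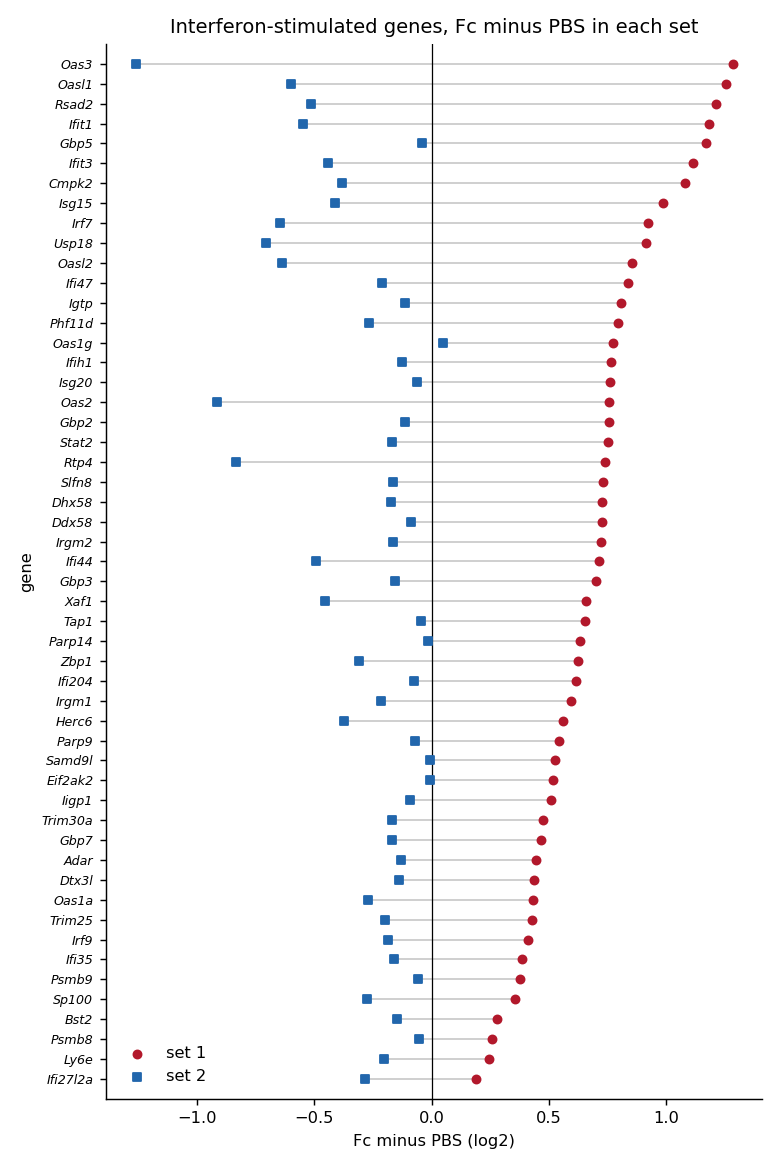
Fc minus PBS on the log2 scale for 52 of the 53 interferon-stimulated genes tested, in set 1 (red circles) and set 2 (blue squares), ordered by the value in set 1. All red circles lie above 0 and all blue squares but that of Oas1g lie below 0, with most of them closer to 0.

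Rsad2, which encodes the antiviral enzyme viperin, stood at 4.42 with Fc against 3.20 with PBS in set 1, and at -0.59 with Fc against -0.08 with PBS in set 2. Both arrays of set 1 were above both arrays of set 2, and within the sets Fc was 2.32-fold higher and 0.701-fold of PBS. Ifit1, which encodes a protein that binds viral RNA, stood at 3.09 with Fc against 1.90 with PBS in set 1, and at -2.05 with Fc against -1.50 with PBS in set 2. Isg15, the gene of a ubiquitin-like modifier, was named after its values were seen and stood at 6.51 with Fc against 5.52 with PBS in set 1, and at 3.07 with Fc against 3.48 with PBS in set 2. Its second probe, measured at other signals, differed by 1.01 in set 1 and -0.53 in set 2. Usp18, which encodes the protease that removes that modifier and restrains interferon signalling, stood at 4.13 with Fc against 3.21 with PBS in set 1, and at -0.53 with Fc against 0.18 with PBS in set 2. These 4 genes were ordered alike on the arrays, with Fc of set 1 highest and Fc of set 2 lowest.

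Oas2, which encodes a sensor of double-stranded RNA, differed by 0.76 in set 1 and -0.91 in set 2, and Rtp4 by 0.74 and -0.84. These are 2 of the members whose difference was larger in set 2, and their mean differences of -0.08 and -0.05 were above 0 with each array scaled to its median (0.01 and 0.04). Irf7, the gene of a transcription factor that amplifies interferon production, differed by 0.92 and -0.65. Oas3 differed by 1.28 and -1.26 at low signals, with 1 of the 2 Fc arrays well above background. Gbp5, a guanylate-binding protein gene, differed by 1.17 in set 1 and by -0.04 in set 2. The direction in set 1 was shared by all 53 members with every scaling tried, and in set 2 by 52 members with quantile scaling, 52 with scaling to microglia markers and 44 with median scaling. Of 14 members with several probes, all probes agreed on the direction in both sets for 9.

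Ifnb1, which encodes interferon beta, stood at -2.73 with Fc against -3.64 with PBS in set 1 and at -5.65 with Fc against -6.09 with PBS in set 2. In set 2 neither array was well above background, so the difference of 0.44 there is not a measured change, and with normexp background correction the mean difference of 0.68 (SE 0.17) was 0.09. Irf1, the gene of another transcription factor of the pathway, was 0.70 higher in set 1 and 0.12 higher in set 2, and Socs1, a feedback inhibitor gene, 0.68 and 0.05. Of the 29 tested genes of interferons, their receptors, IRF and STAT factors, 19 were higher with Fc in both sets and 6 were higher in set 1 and lower in set 2, and their medians of 0.09 and 0.05 were close to those of all genes. Ifit3b, a close relative of Ifit3 that the interferon list did not hold, was higher with Fc in both sets, at 1.84 with Fc against 0.65 with PBS in set 1 and at -1.12 with Fc against -2.24 with PBS in set 2. Ifit3 itself differed by 1.11 and -0.44. The 2 genes are near-identical copies whose probes may share signal, so their disagreement in set 2 is uncertain.

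Between the sets, PBS cells already differed in these genes. The median signal of the interferon-stimulated genes was 3.37 with Fc and 2.74 with PBS in set 1, and 1.57 with Fc and 1.74 with PBS in set 2. On the PBS arrays 46 of the 53 members were higher in set 1 than in set 2, by a median of 0.68, and on the Fc arrays 52 were, by a median of 1.58. Of all 19114 genes, 7265 were higher in set 1 on the PBS arrays (median difference -0.14) and 8002 on the Fc arrays (median difference -0.10). Against the same PBS arrays, the medians of the list for Ecrg4(71-132) were 0.99 in set 1 and 0.10 in set 2, and for Ecrg4(133-148) 0.26 and -0.06. The median of the NF-kB genes against PBS was 0.61 and 1.97 for Ecrg4(71-132) and 0.29 and 1.21 for Ecrg4(133-148), where Fc had 0.28 and 0.38. These comparisons share their PBS arrays and are therefore not independent.

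**Figure D3:**
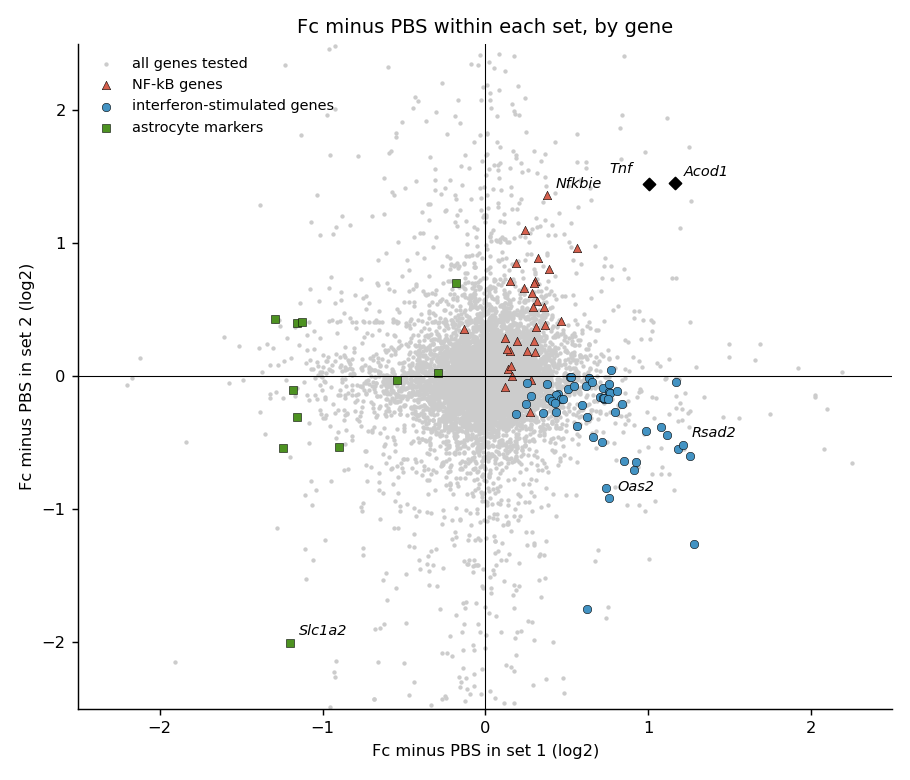
Fc minus PBS in set 1 (horizontal, log2) and in set 2 (vertical, log2), 1 point per gene, for all genes within 2.5 of 0 in both sets (grey, 193 of 19114 genes lie outside) and for the NF-kB genes (triangles), the interferon-stimulated genes (circles) and the astrocyte markers (squares), with Tnf and Acod1 as diamonds. NF-kB genes lie mostly in the upper right, interferon-stimulated genes in the lower right and astrocyte markers on the left.

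Promoters of 3 of these genes are shown because the genes were ordered alike on the arrays and hold the ISRE core, the letters GAAA, any 2 bases and GAAA, of the interferon-stimulated response element. The sequences are again 300 bases from RefSeq on GRCm38.p6, from 250 before to 50 after the gene start, with matches on either strand in capitals. Matches that overlap in Isg15 run together, and there are 3 in Isg15, 2 in Ifit1 and 1 in Rsad2.
Rsad2 (chr12:26456403-26456702, minus strand): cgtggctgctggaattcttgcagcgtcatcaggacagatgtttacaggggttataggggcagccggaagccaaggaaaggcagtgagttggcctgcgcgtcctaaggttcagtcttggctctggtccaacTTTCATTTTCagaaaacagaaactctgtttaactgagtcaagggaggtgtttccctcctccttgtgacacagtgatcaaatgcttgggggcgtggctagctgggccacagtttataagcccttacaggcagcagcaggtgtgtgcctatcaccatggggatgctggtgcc
Isg15 (chr4:156200769-156201068, minus strand): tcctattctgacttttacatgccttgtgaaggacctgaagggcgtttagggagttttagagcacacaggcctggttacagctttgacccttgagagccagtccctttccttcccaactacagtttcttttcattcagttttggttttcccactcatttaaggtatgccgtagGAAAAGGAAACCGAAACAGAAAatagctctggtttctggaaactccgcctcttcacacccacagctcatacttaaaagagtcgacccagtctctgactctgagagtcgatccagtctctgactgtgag
Ifit1 (chr19:34640639-34640938, plus strand): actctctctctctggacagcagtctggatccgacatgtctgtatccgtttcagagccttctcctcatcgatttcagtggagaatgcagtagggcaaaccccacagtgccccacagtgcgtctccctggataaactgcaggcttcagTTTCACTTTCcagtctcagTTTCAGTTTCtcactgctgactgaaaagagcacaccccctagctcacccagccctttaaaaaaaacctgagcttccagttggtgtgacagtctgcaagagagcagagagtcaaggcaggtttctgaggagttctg
The first match begins 120 bases before the gene start in Rsad2, 78 in Isg15 and 104 in Ifit1. The ISRE core was found in 21 of 41 tested interferon-stimulated genes with a promoter in the table (51.2%) and in 3.99% of all 27025 promoters. For the 21 members with it the medians were 0.75 (set 1) and -0.16 (set 2), and for the 20 without it 0.61 and -0.20, so members with and without the letters in this window both went opposite ways between the sets.

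Of the Fc receptors on the cell surface and their common gamma chain, Fcgr1 had the widest interval. Fcgr3, the gene of an activating low-affinity receptor, stood at 4.97 and 5.19 with Fc and at 4.95 and 5.21 with PBS. Its difference was 0.004 (SE 0.11, 95% interval -0.28 to 0.29), and it turned to -0.05 with quantile scaling and to -0.06 with scaling to microglia markers. Fcer1g, the gene of the common gamma chain, was among the brightest at 7.78 and 8.22 with Fc and 7.66 and 8.13 with PBS (difference 0.10, interval -0.07 to 0.27). Fcgr2b, the inhibitory receptor gene, stood at 4.28 and 3.59 with Fc and at 4.14 and 3.53 with PBS (difference 0.10, interval -0.07 to 0.28). Fcgr1, the gene of the high-affinity receptor and one that interferon also induces, differed by 0.40 in set 1 and -0.18 in set 2, Fcgr4 by 0.20 and -0.02, and Fcgrt, the gene of the neonatal Fc receptor, by 0.05 and -0.02. The intervals of the mean difference were -1.41 to 1.63 for Fcgr1, -0.31 to 0.49 for Fcgr4 and -0.15 to 0.18 for Fcgrt. Missing the threshold does not show that these genes were alike.

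Among signalling genes downstream of the receptors, Syk, the kinase gene, was 0.32 higher in set 1 and 0.25 higher in set 2 (SE of the mean 0.19), and Lcp2, an adaptor gene, 0.21 and 0.39. Trim21, which encodes a cytosolic Fc receptor and is induced by interferon, differed by 0.69 and -0.19. Of the 25 Fc receptor and proximal signalling genes, 25 were higher with Fc in set 1, where 70.0% of all genes were, and 13 were higher in set 2, where 52.9% were. With scaling to microglia markers 14 of the 25 were higher in set 1, so the count of 25 goes with the scaling. The medians were 0.14 and 0.02, beside 0.10 and 0.05 for 22 microglia and macrophage markers.

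Genes of Toll-like receptor signalling and of other activation products add to the description. Tlr2, the gene of a receptor for bacterial lipoproteins and itself induced on activation, stood at 7.35 and 6.50 with Fc and at 7.08 and 5.50 with PBS. Tlr4, the endotoxin receptor gene, stood at 2.05 and 3.02 with Fc and 2.05 and 3.06 with PBS, and Cd14, its co-receptor gene, was higher by 0.23 and 0.21. The list of 26 Toll-like receptor, co-receptor and adaptor genes had medians of 0.16 and 0.03, with 15 higher in both sets. Cd40, the gene of a costimulatory receptor, stood at 0.86 and -0.38 with Fc and at 0.03 and -3.84 with PBS. Its difference of 3.46 in set 2 rests on a PBS array with a very low signal, and the mean difference of 2.15 was 1.33 with normexp background correction and ran from 0.506 to 3.79 with 1 array left out. Nos2, the inducible nitric oxide synthase gene, stood at -1.005 and -1.67 with Fc and at -1.50 and -1.93 with PBS, with a difference of 0.38 (SE 0.11, unadjusted p = 0.02, limma adjusted p = 0.9996). Ptgs2, the cyclooxygenase-2 gene, differed by 0.03 in set 1 and 1.08 in set 2, where the PBS array was not well above background, and Arg1, the arginase 1 gene, differed by -0.01 and -0.05. The 26 AP-1, EGR, IER and NR4A immediate-early genes had medians of 0.01 and 0.02 at this time point, with 11 higher in both sets and 7 lower in both.

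**Figure D4:**
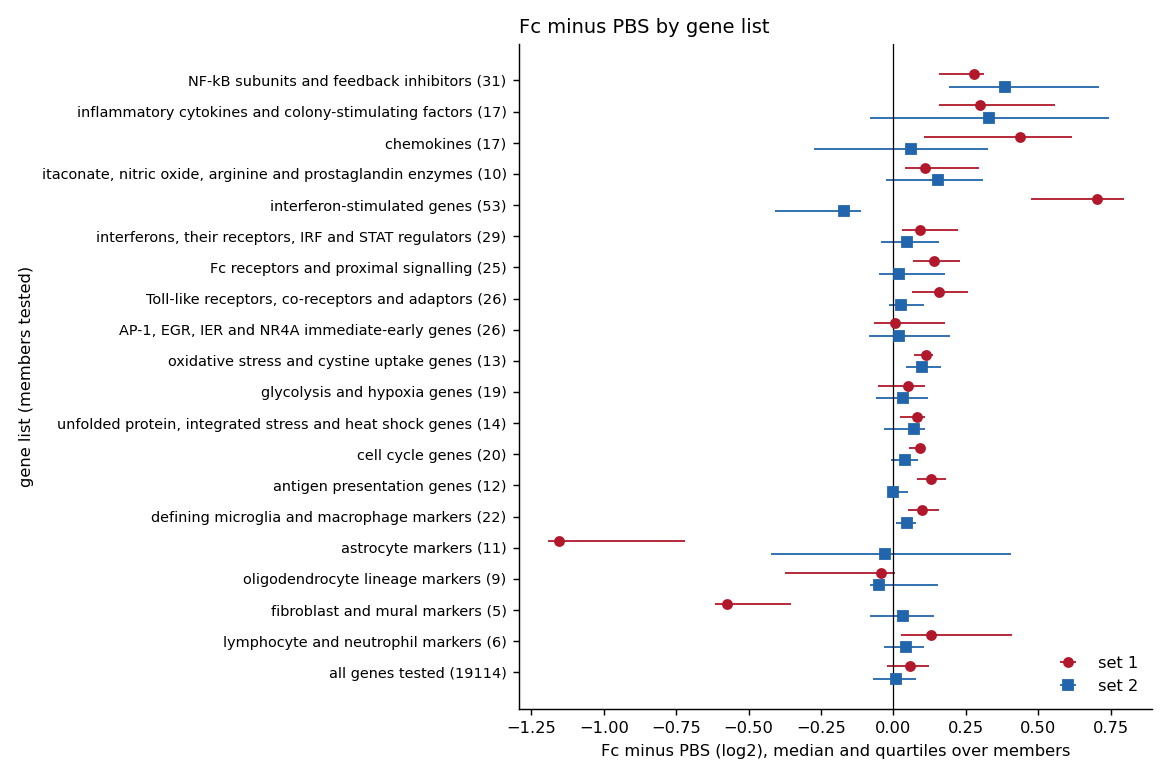
Median Fc minus PBS on the log2 scale in set 1 (red circles) and set 2 (blue squares) for each gene list with at least 5 members tested, with bars for the quartiles over members and the number tested in parentheses, and all 19114 genes in the bottom row. The interferon-stimulated genes have medians on either side of 0, the NF-kB genes lie above 0 in both sets, and the astrocyte markers lie below -1 in set 1 and near 0 in set 2.

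Markers of other cell types differed between the arrays of set 1. Of 11 astrocyte markers tested from a list of 15, 11 were lower with Fc in set 1, with a median difference of -1.16, while in set 2 the median was -0.03. The PBS array of set 1 was the highest of the 4 arrays of that set for all 11, against 3113 of all 19114 genes. In set 1 the medians against PBS were also below 0 for Ecrg4(71-132), at -0.56, and for Ecrg4(133-148), at -1.10. The lower values were thus not particular to the Fc array. Of the 11, 4 were well above background on the 4 arrays, and their median was -0.72 for set 1 and -0.06 for set 2. Gfap, the gene of an astrocyte filament protein, stood at 1.14 with Fc against 2.43 with PBS in set 1 and was not well above background on either array of set 2. The signal of the list had a median of 0.08 with Fc and 1.24 with PBS in set 1, and of -4.23 with Fc and -3.67 with PBS in set 2. The 5 fibroblast and mural markers tested from a list of 12 had medians of -0.57 and 0.03, with median signals of 2.83 with Fc and 3.79 with PBS in set 1 and of -2.33 with Fc and -2.04 with PBS in set 2. The 22 microglia and macrophage markers differed little (medians of 0.10 and 0.05), and Csf1r, a growth factor receptor gene of this lineage, stood at 8.16 and 8.17 with Fc and at 8.03 and 8.08 with PBS, so RNA of that lineage was on every array. Gfap and Csf1r are named after their values were seen. Cx3cr1, another such marker, was high in set 1, at 4.71 with Fc and 4.58 with PBS, and low in set 2, at -2.36 with Fc and -3.25 with PBS. In bulk RNA, fewer cells of a type and less RNA per cell cannot be told apart, and the part of the astrocyte and fibroblast RNA in the other differences of set 1 was not tested.

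**Figure D5:**
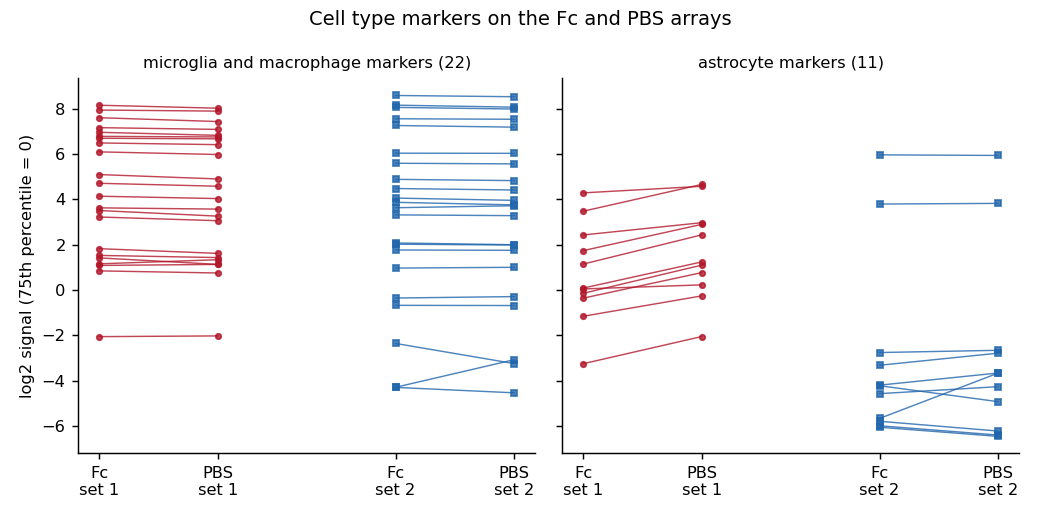
Log2 signal (75th percentile of each array at 0) of the 22 microglia and macrophage markers (left panel) and the 11 astrocyte markers (right panel) on the Fc and PBS arrays of set 1 (red circles) and set 2 (blue squares), with a line per gene. Microglia lines are almost level apart from the dimmest in set 2, astrocyte lines are lower with Fc in set 1, and all but 2 astrocyte markers have lower signals in set 2 than in set 1.

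Over all genes, few differed by more than 2-fold the same way in both sets. With Fc, 8 genes (0.0419%) were over 2-fold higher in both sets and 23 (0.120%) over 2-fold lower in both, 2 (0.0105%) were over 2-fold higher in set 1 and lower in set 2, and 16 (0.0837%) the reverse. Of the 17504 genes well above background on the 4 arrays, 3 (0.0171%) were higher in both, namely Tnf, Acod1 and Ifit3b, and 1 (0.00571%) was lower in both, Fbxo2. Fbxo2, which encodes an F-box protein that recognises glycoproteins, stood at 1.35 with Fc against 2.45 with PBS in set 1 and at -3.40 with Fc against -2.11 with PBS in set 2. It was also below PBS with Ecrg4(71-132), at 1.67 and -3.02 in set 1 and set 2, and with Ecrg4(133-148), at 1.15 and -2.24. The lower values were thus not particular to the Fc arrays. Slc1a2, an astrocyte glutamate transporter gene, and Fgfr3, a growth factor receptor gene on the astrocyte list, were also lower with Fc in both sets. The differences were -0.90 and -0.53 for Fgfr3, whose PBS array was likewise the highest of each set, and -1.20 in set 1 for Slc1a2. For Slc1a2 the Fc array of set 2 was not well above background, so no size is given there. Among the genes with a symbol, Dpf1 had the smallest p of those higher with Fc, at -1.75 and -1.81 with Fc and at -2.52 and -2.64 with PBS (difference 0.80, SE 0.13, unadjusted p = 0.00214, limma adjusted p = 0.9996). Its groups did not overlap, and its signal was low on all 4 arrays. Ptgds, a prostaglandin D2 synthase gene, had one of the smallest p among genes with a symbol that were lower with Fc. It stood at -1.65 with Fc against 0.30 with PBS in set 1 and at -5.96 with Fc, not well above background, against -2.67 with PBS in set 2.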

How the data were processed

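RNA of 8 microglia samples was hybridised to one-colour Agilent arrays. The deposited scanner files hold linear, background-subtracted spot intensities and flags; the submitters' processing notes name Agilent Feature Extraction 11.0.1.1. The deposited table of the authors' processed values holds log2 values that follow the scanner intensity with a correlation of 1 on each array, with column medians of -4.48 to -4.21 and the 75th percentile of each column at 0. It is not centred by gene, and its scaling step is not given in the sources used.

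From the intensities, log2 signal minus the 75th percentile of each array was computed, with spots of a probe averaged and outlying spots left out (104 probes). No spot was saturated. Of 55681 probes, 28026 were named through RefSeq accessions (GRCm38.p6 gene table) and 27655 kept the name in the files. Probes that both arrays of any group measured well above background were kept (25244), and the brightest stood for its gene, giving 19114 genes.

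Limma 3.58.1 (R 4.3.3) was fitted to the 8 arrays with a mean per group and the set as a block (3 residual degrees of freedom), with Benjamini-Hochberg adjustment over all genes and a threshold of 0.05. The set numbers in the titles were taken as pairs. The differences between the sets correlated at 0.783 to 0.862 in the 6 pairs of groups. The fit was tested on simulated data. Precision is limited by the number of arrays. The members and the 21 gene lists were chosen with earlier results of these data known. Named are the 3 markers, the highest, lowest and brightest members of each list, further members of 7 lists by size, a set of receptors and cytokines, and the genes with the largest consistent or opposite differences or the smallest p; the text leaves some out, and 2 are not reported here. Alternatives covered scaling, normexp background correction (offset 50), filters, probe rules, the block, moderation, the deposited log2 table, the fold threshold and each array left out. Scaling to the 22 microglia markers was added after seeing the data.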

Additional observations from a re-analysis of the deposited data

Results flagged for a closer look

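The interferon-stimulated genes had a median Fc minus PBS of 0.701 in set 1 and -0.171 in set 2, with all 53 members higher in set 1 and 52 of them lower in set 2. They are listed here because the arrays of the sets moved in opposite directions under the same contrast. Each set holds 1 array per treatment, so the difference between the sets was not tested. In set 1 the astrocyte markers had a median of -1.16 and in set 2 of -0.03 (-0.72 and -0.06 over the 4 of 11 well above background on the 4 arrays), and their part in the difference was not tested.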

How the results depend on the processing

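No setting gave a gene at an adjusted p under 0.05, and the number at an unadjusted p under 0.05 ran from 51 without the replicate block to 875 with the 4 Fc and PBS arrays alone. The opposite medians of the interferon-stimulated genes kept their sign within each set under every scaling, filter and probe rule tried, and those of the NF-kB genes did too, although with the NF-kB median of set 1 at 0.376 with median scaling and 0.16 with scaling to microglia markers. Counts of genes over 2-fold depended on dim probes, where signal over background limits a fold. Those higher in both sets numbered 1 with normexp, 3 among genes well above background on the 4 arrays, 40 with no filter, 5 with scaling to microglia markers and 35 at 1.5-fold. Those lower in both sets numbered 1 with normexp, 1 among genes above background, 68 with no filter and 73 at 1.5-fold. Those higher in set 1 and lower in set 2 numbered 0, 0 and 41 with these 3 settings in turn, 1 with scaling to microglia markers and 26 at 1.5-fold. Those lower in set 1 and higher in set 2 numbered 9 with median scaling, 2 with normexp, 4 above background, 82 with no filter, 28 with scaling to microglia markers and 59 at 1.5-fold.

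The mean of both sets changed sign in some settings for genes near 0. Median scaling gave 0.00636 for Oas2, 0.0354 for Rtp4, 0.056 for Arg1 and 0.0668 for Tlr4. Quantile scaling gave -0.0462 for Fcgr3 and -0.0328 for Fcgrt, normexp gave 0.0216 for Arg1, -0.0318 for Fcgrt and -0.0295 for Ripk2, and scaling to microglia markers gave -0.0605 for Fcgr3, -0.0502 for Fcgrt, -0.0532 for Oas3 and -0.0625 for Ripk2. With 1 array left out, where the lone array of a group is assumed to vary like the other groups, the median of the NF-kB genes ran from 0.014 to 0.841. Among activation genes, the difference ran from -0.000533 to 2.62 for Acod1, -0.0274 to 2.7 for Il1b, -0.269 to 2.96 for Il6, -0.37 to 2.18 for Cxcl3, -0.0601 to 1.33 for Tlr2, -0.321 to 0.763 for Cd14, -1.43 to 2.54 for Ptgs2 and -0.0975 to 0.0411 for Arg1. Among NF-kB genes, the difference ran from -0.0969 to 1.83 for Nfkbie, -0.0376 to 1.38 for Bcl3, -0.224 to 1.22 for Tnfaip3, -0.0559 to 1.25 for Icam1, -0.143 to 1.17 for Nfkb2, -0.129 to 1.17 for Relb and -0.322 to 0.327 for Ripk2. Among interferon-stimulated genes, the difference ran from -0.493 to 1.19 for Rsad2, -0.542 to 1.18 for Ifit1, -0.296 to 0.872 for Isg15, -0.59 to 0.798 for Usp18, -0.79 to 0.635 for Oas2, -0.582 to 0.484 for Rtp4 and -0.546 to 0.825 for Irf7. Among further interferon-responsive genes, the difference ran from -1.38 to 2.92 for Ccl5, -0.616 to 1.59 for Cxcl10, -0.474 to 1.6 for Gbp5, -0.199 to 0.871 for Ifit3, -1.08 to 1.11 for Oas3, -0.0636 to 0.789 for Socs1 and -0.104 to 0.602 for Trim21. Among receptor and marker genes, the difference ran from -0.524 to 0.749 for Fcgr1, -0.0988 to 0.107 for Fcgr3, -0.0934 to 0.269 for Fcgr4, -0.0267 to 0.0558 for Fcgrt, -0.0368 to 0.00207 for Tlr4, -0.297 to 1.32 for Cx3cr1 and -1.52 to 0.664 for Gfap. Of 1095 recomputed differences of the 58 genes, 1033 kept their direction. The cause of the others was not tested.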
